A study of Mus musculus with 8 samples.

Results

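Lipid droplet proteins are a set of 10 genes whose products coat, enlarge or empty the fat stores of a cell: Plin2, Plin3, Plin4, Plin5, Cideb, Cidec, G0s2, Pnpla2, Abhd5 and Hilpda. They were chosen by symbol and not by a measured value, though with earlier results of these data known. They are 10 of the 35975 genes and 38 of the 119414 transcripts in the deposited liver table. The study infused young adult C57BL/6 mice on chow for 2 weeks with normal saline (n = 4) or with 4-hydroxyphenylacetic acid (4-HPAA) in normal saline (n = 4). 4-HPAA is a small phenolic acid, known as a product of tyrosine breakdown by gut bacteria. In both groups the infusion ran continuously into the portal vein, through an implanted catheter fed by an osmotic pump under the skin, and the mice were housed singly after surgery. All 8 mice therefore carried the surgery, the catheter and the pump, and they differed by label only in what the pump held. The libraries are called NS1 to NS4 for normal saline and HP1 to HP4 for 4-HPAA, after the numbers in the labels, and each is 1 mouse.

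Hepatocytes store triglyceride in lipid droplets, each a core of neutral lipid wrapped in a single layer of phospholipid. Perilipins coat that surface and limit the access of lipases, proteins of the CIDE family pass lipid between droplets and onto lipoproteins, and adipose triglyceride lipase, the product of Pnpla2, takes the first step of lipolysis. Abhd5 encodes the co-activator of this lipase, while G0s2 and Hilpda encode small proteins that inhibit it.

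The counts were kallisto estimates per transcript, summed here per gene. Each library held from 29559978 to 30673398 estimated counts in all. Hepatocyte markers summed to 102825 to 124192 CPM (counts scaled to library size, with TMM normalization) with normal saline and to 96353 to 123964 CPM with 4-HPAA. Of the adipocyte markers, which matter here because fat cells make several of the same proteins, Lep was at 0 in all 8 libraries and Adipoq did not exceed 0.066 CPM. The 8 adipocyte markers together summed to 12.7 to 20.1 CPM and 13.5 to 17.3 CPM, nearly all of it Fabp4 and Adrb3. Ddx3y, a gene of the Y chromosome, was present at 72.1 to 89.5 CPM in every library, where the labels give no sex. In bulk liver, fewer cells of a type and less RNA per cell cannot be told apart.

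All 10 genes were detected in every library and passed the minimum of 10 counts per library, so that none was left out of the test. Compared per length over the 8 libraries, as TPM (counts scaled to transcript length and library size), Plin2 stood highest at 261 ± 28.8 TPM (SD, n = 8), above 98.0% of genes with a TPM over 0. Cideb followed at 184 ± 12.7 TPM, G0s2 at 130 ± 44.0 TPM, Pnpla2 at 103 ± 11.6 TPM and Plin5 at 71.8 ± 31.9 TPM. The lower group held Abhd5 at 16.4 ± 1.502 TPM, Plin3 at 14.3 ± 1.58 TPM, Cidec at 10.4 ± 4.94 TPM, Plin4 at 5.66 ± 2.01 TPM and Hilpda at 2.73 ± 0.626 TPM. Not every step of this order exceeded the spread between mice. G0s2 was above Pnpla2 in only 4 of 8 libraries, with a log2 difference of 0.27 ± 0.44 (SD), and Abhd5 was above Plin3 in 6 of 8, with a log2 difference of 0.20 ± 0.26. The step from Plin3 to Cidec, 0.55 ± 0.54, was also no larger than about 1 SD. Plin2 was above Cideb, Plin5 above Abhd5, Cidec above Plin4 and Plin4 above Hilpda in 8 of 8 libraries.

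The first question of the design is whether 4-HPAA in the portal blood changed the liver level of these genes. No member passed the test of a difference between the groups. By edgeR's quasi-likelihood test over 12883 genes with Benjamini-Hochberg adjustment, 0 of 10 members passed the threshold of 0.05, each with an adjusted p of 1.00, and the smallest unadjusted p of a member was 0.233, for Cidec. The background was equally empty, with 0% of all genes passing by edgeR, 1.75% (225 genes) at an unadjusted p under 0.05, 2 genes passing by DESeq2 and 0 by limma-voom. The libraries of the 2 groups overlapped for 10 of 10 members, against 1.2% of all genes whose groups did not overlap. Estimated log2 fold changes (4-HPAA minus normal saline) were above 0 for 4 members and below 0 for 6, where 50.4% of all genes were above 0 and 49.6% below, and with RLE in place of TMM normalization the split was 6 above and 4 below. Their median was -0.0010, against 0.00071 for all genes, and their median absolute value was 0.060, against 0.070.

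**Figure D1:**
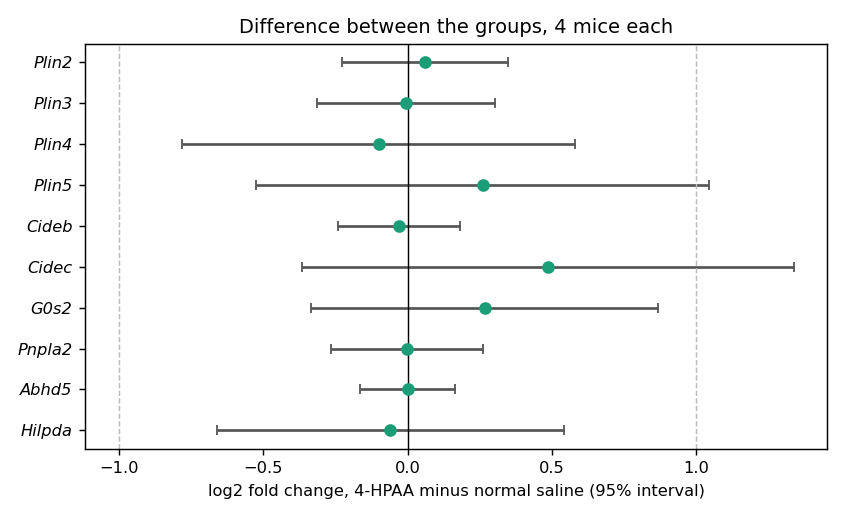
Log2 fold change of each gene (x axis, 4-HPAA minus normal saline) with its 95% interval from the edgeR fit, 4 mice per group, where dashed lines mark a change of 2-fold. The intervals of all 10 genes include 0, and those of Plin5 and Cidec reach past 2-fold.

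The intervals say how large a difference these 8 libraries could have missed. The 95% interval of the fold change lay between 0.5 and 2 for 8 of the 10 members. It was narrowest for Abhd5, from 0.892 to 1.120 fold, followed by Cideb, from 0.847 to 1.13 fold, and Pnpla2, from 0.833 to 1.199 fold. It was widest for Cidec, from 0.776 to 2.53 fold, and for Plin5, from 0.694 to 2.06 fold. For these a difference of 2-fold was within reach of the interval.

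Perilipin 2, the perilipin most closely tied to stored fat in hepatocytes, was read at chr4:86648386-86670060 on the minus strand (GRCm38). Plin2 measured 261, 273, 251 and 334 CPM in NS1 to NS4 and 297, 232, 304 and 334 CPM in HP1 to HP4. NS4 and HP4 shared the highest level and HP2 had the lowest, and the log2 fold change was 0.06 ± 0.13 (SE). A single transcript, Plin2-201, held 97.1% of the counts of the gene in both groups. The promoter of this most abundant member is shown from RefSeq (GRCm38.p6, chr4:86670010-86670309, minus strand, written 5′ to 3′, from 250 bases before the start to 50 after it). Capitals mark letters found by a search on both strands, namely TGACCT, the reverse of the nuclear receptor site AGGTCA, 218 bases before the start, CCAAT 73 bases before it, and the E-box CACGTG, also the core letters ACGTG of hypoxia response elements, 4 bases before it.
Plin2: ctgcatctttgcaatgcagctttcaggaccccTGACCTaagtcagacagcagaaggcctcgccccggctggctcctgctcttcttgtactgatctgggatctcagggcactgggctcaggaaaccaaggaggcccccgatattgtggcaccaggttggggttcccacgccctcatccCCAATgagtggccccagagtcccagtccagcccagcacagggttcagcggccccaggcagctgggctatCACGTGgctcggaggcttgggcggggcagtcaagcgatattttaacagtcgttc
AGGTCA was in 16.3% of all 32817 RefSeq promoters of this length, CACGTG in 7.15%, ACGTG in 19.6% and CCAAT in 37.4%. The full PPAR element (DR1, a direct repeat of AGGTCA with 1 free base between the copies), found in 0.0396% of them, was in none of the 13 windows of the 10 members, and a match or its absence in these letters says nothing of binding.

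Perilipin 5 coats droplets in tissues that burn fat and tethers them to mitochondria. Plin5 (chr17:56111601-56117596, minus strand) measured 118, 63.8, 58.4 and 78.1 CPM with normal saline and 69.3, 50.4, 92.4 and 169 CPM with 4-HPAA. HP4 was highest, NS1 second and HP2 lowest, so that the extremes of all 8 mice stood within the 4-HPAA group. The log2 fold change was 0.26 ± 0.35. Without HP4 it was -0.17.

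Plin3, a perilipin made in most tissues, and Plin4, which coats nascent droplets mainly in fat and muscle, lie close to Plin5 on the same strand of chromosome 17, at chr17:56277476-56292873 and chr17:56100591-56109803. Plin3 measured 25.4, 37.0, 28.4 and 32.0 CPM with normal saline and 35.8, 28.0, 25.6 and 33.0 CPM with 4-HPAA, with a log2 fold change of -0.0054 ± 0.14. Plin4 measured 26.8, 25.0, 15.4 and 15.6 CPM with normal saline and 15.8, 11.8, 17.1 and 32.5 CPM with 4-HPAA, with a log2 fold change of -0.10 ± 0.31. NS1, NS2 and HP4 stood apart from the other 5 libraries for Plin4, whereas for Plin3 NS2 and HP1 were highest. Without HP4 the log2 fold change of Plin4 was -0.47.

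**Figure D2:**
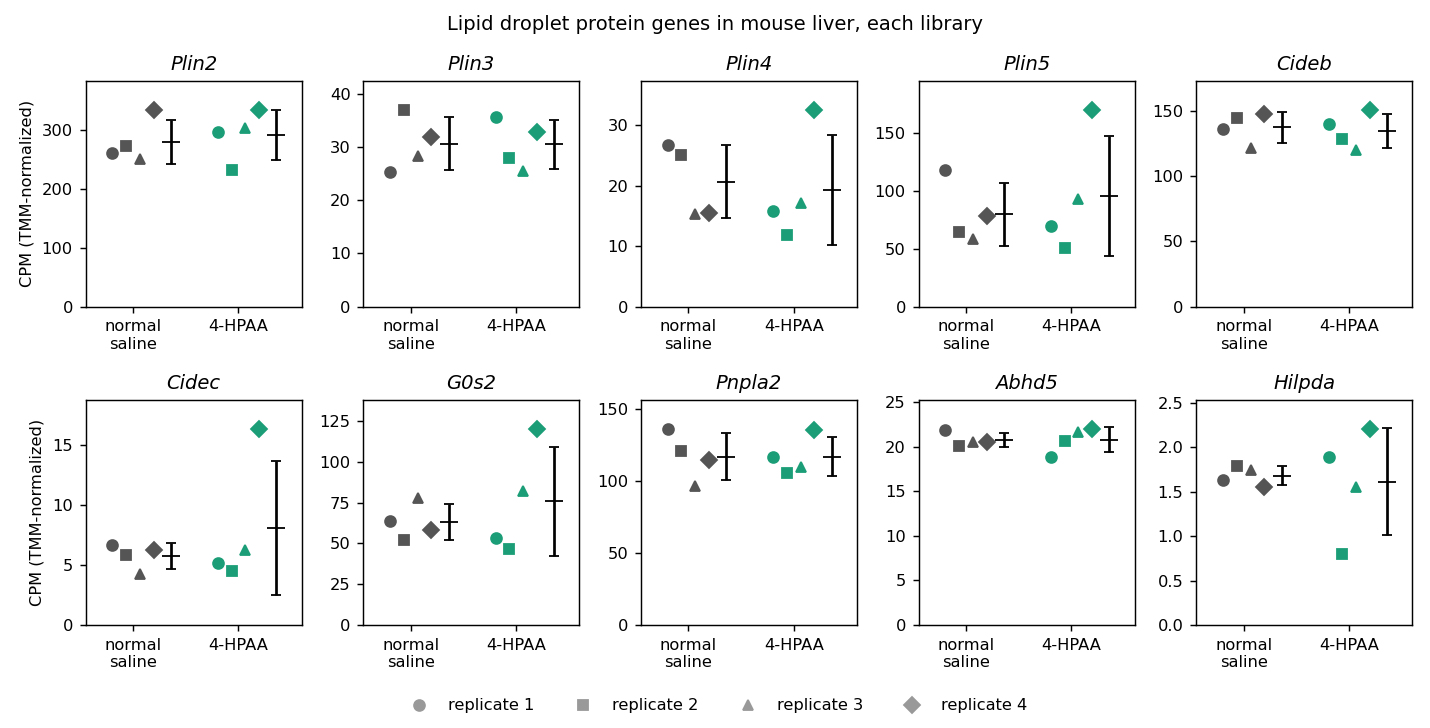
Level of each gene in CPM (y axis, from 0) in the 4 libraries of each group, with 1 marker shape per replicate number and the mean ± SD of the group to the right of its points. The groups overlap for every gene, and HP4, the filled diamond of the 4-HPAA group, is the highest point for 8 of 10.

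The CIDE proteins act at contacts between droplets. Cideb, which in hepatocytes also loads lipid onto very low density lipoprotein, was the steadier (chr14:55754050-55758458, minus strand). It measured 136, 145, 122 and 148 CPM with normal saline and 140, 129, 120 and 151 CPM with 4-HPAA, with a coefficient of variation of 8.55% over the 8 libraries. Its log2 fold change was -0.03 ± 0.09. Cideb overlaps Nop9 on the opposite strand by 1451 bases. The standard parameters of kallisto, which the authors used, make no use of strand, so that reads from the shared bases cannot be told apart by strand.

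Cidec, also called FSP27, drives the fusion of droplets into large ones and is high in fat cells and in fatty liver. It is at chr6:113424634-113435760 on the minus strand. Cidec measured 6.70, 5.80, 4.23 and 6.25 CPM with normal saline and 5.13, 4.47, 6.28 and 16.3 CPM with 4-HPAA. Of the 4-HPAA libraries 3 lay within the range of normal saline and HP4 alone was far above it, from 467 counts against 129 to 209 in the other libraries. The log2 fold change of 0.49 ± 0.38 was the largest of the 10 in size, and without HP4 it was -0.12. The adipocyte markers summed to 17.3 CPM in HP4, within the range of normal saline, with Adipoq and Lep at 0. Fabp4, a lipid carrier of fat cells that macrophages also make, was at its highest of the 8 libraries in HP4, at 8.15 CPM, against 4.401 to 5.45 CPM in the other 4-HPAA libraries and 4.46 to 7.95 CPM with normal saline, and its part in the value of Cidec was not tested.

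Pnpla2 (chr7:141455198-141460743, plus strand) and the regulators of its lipase complete the set. Pnpla2 measured 136, 121, 96.6 and 115 CPM with normal saline and 117, 106, 110 and 136 CPM with 4-HPAA, a log2 fold change of -0.0013 ± 0.12. The co-activator gene Abhd5 (chr9:122351608-122381524, plus strand) was the steadiest of the 10. It measured 21.9, 20.1, 20.6 and 20.5 CPM with normal saline and 18.9, 20.6, 21.7 and 22.0 CPM with 4-HPAA, a log2 fold change of -0.00068 ± 0.07. Its coefficient of variation over the 8 libraries was 5.10%, near the 4.02% that counting alone would give at its depth. It overlaps the antisense gene A730085K08Rik by 950 bases.

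The inhibitor genes varied more. G0s2 (chr1:193272161-193273217, minus strand) lies whole within Lamb3 on the opposite strand. G0s2 measured 64.0, 51.9, 77.8 and 58.2 CPM with normal saline and 53.4, 46.8, 82.4 and 120 CPM with 4-HPAA. HP4 was highest and HP2 lowest, and the log2 fold change was 0.27 ± 0.27, or -0.05 without HP4. Hilpda (chr6:29272488-29275446, plus strand), a gene induced by low oxygen and by fatty acids, was the least abundant member, with 24 to 63 counts per library. It measured 1.64, 1.78, 1.74 and 1.55 CPM with normal saline and 1.89, 0.800, 1.55 and 2.20 CPM with 4-HPAA, a log2 fold change of -0.06 ± 0.27. The normal saline libraries lay close together and HP2 and HP4 bracketed all others, at a depth where counting alone gives a coefficient of variation of 14.3%.

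The RNA of the lipase gene and of the genes of its regulators was compared as a ratio of TPM within each library. Such a ratio sums all transcripts of a gene, coding or not, and says nothing of protein. G0s2 over Pnpla2 was 0.994, 0.909, 1.68 and 1.09 with normal saline and 0.969, 0.935, 1.58 and 1.94 with 4-HPAA. Of the 8 mice, NS3, HP3 and HP4 were near or above 1.5, and the difference between the groups did not pass an exact permutation test (two-sided, 70 splits, p = 0.657). Abhd5 over Pnpla2 was 0.160 ± 0.0186 (SD, n = 4) with normal saline and 0.160 ± 0.0255 with 4-HPAA (exact p = 0.943). Hilpda over Pnpla2 was 0.0274 ± 0.00438 and 0.0256 ± 0.00793 (exact p = 0.771). Adjusted over these 3 ratios each p was 0.943, and the smallest p that 4 against 4 allows is 0.0286.

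The members differed in how far their levels varied over the 8 mice. Cidec, Plin5, Plin4, G0s2 and Hilpda had standard deviations of log2 CPM over the 8 libraries of 0.60, 0.58, 0.50, 0.45 and 0.41. These exceeded the SDs of 97.0%, 96.6%, 94.5%, 92.7% and 90.7% of the genes tested at a mean of 1 CPM or more, whose median was 0.17. Plin2, Pnpla2 and Plin3 were near the middle of that distribution, at 0.19, 0.17 and 0.21, while Cideb at 0.12 and Abhd5 at 0.07 were below it. The ranking was not matched for level. Counting alone gives Hilpda a coefficient of variation of 14.3%, and the part of low depth in its rank was not tested. The coefficient of variation was larger with 4-HPAA than with normal saline for 8 of 10 members, with medians of 26.3% and 15.2%. The same count over all genes is not given here, and whether the groups differ in spread was not tested.

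The extremes fell on the same mice. HP4 had the highest level of 8 members (Plin2, Plin4, Plin5, Cideb, Cidec, G0s2, Abhd5 and Hilpda) and was among the top 2 libraries for 9. HP2 had the lowest level of 5 members (Plin2, Plin4, Plin5, G0s2 and Hilpda), and NS1 was in the top 2 for 5. Leaving out HP4 put 10 of 10 log2 fold changes below 0, with a median of -0.08, whereas leaving out HP2 put 9 of 10 above 0, with a median of 0.12. Under both, 0 members passed by edgeR. The same counts over all genes are not given here, so that these counts do not set the members apart from other genes. HP4 also had summed red blood cell markers of 734 CPM, against 152 to 163 CPM in the other 4-HPAA libraries and 247 to 2560 CPM with normal saline, and summed Kupffer cell markers of 65.8 CPM, the lowest of the 8 libraries. Their part in the levels was not tested.

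**Figure D3:**
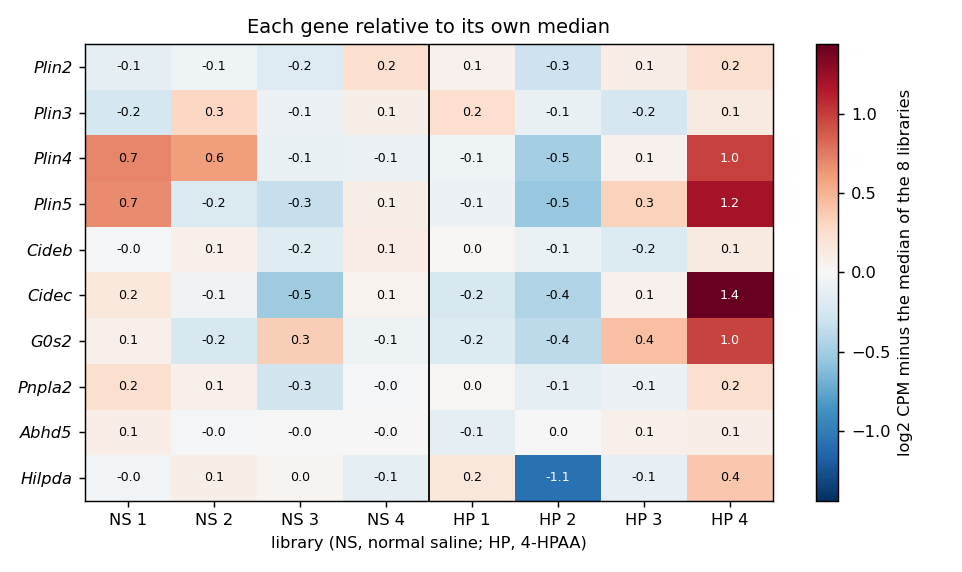
Log2 CPM of each gene (rows) in each library (columns) minus the median of the 8 libraries, with the value printed in each cell and the groups parted by a line. HP4 is above the median for all 10 genes, most for Cidec, and HP2 is below it for 9 genes, all but Abhd5.

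How the members moved together from mouse to mouse was measured over the 45 pairs of members. Pearson's r of log2 CPM over the 8 libraries was above 0 for 41 pairs, with a median of 0.53, where the median over 71982001 pairs of all genes tested at a mean of 1 CPM or more was 0.00. The pairs share members and all rest on the same 8 mice. By exact permutation of the pairings, 10 pairs had p under 0.05 and 1 remained after Benjamini-Hochberg adjustment over the 45. That pair was Plin5 and Cidec, with r = 0.91 (exact p = 0.00035, adjusted p = 0.0156) and Spearman's rho = 0.95 (exact p = 0.0011, adjusted p = 0.0513). Without NS1 and HP4, the libraries farthest from the median of Plin5, r was 0.84. It was 0.78 within normal saline and 0.96 within 4-HPAA, each over 4 mice. Over all 45 pairs, r was above 0 for 24 within normal saline and for 43 within 4-HPAA, and the difference between the groups was not tested. Without HP4 alone r was 0.86, with an adjusted exact p of 0.281.

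**Figure D4:**
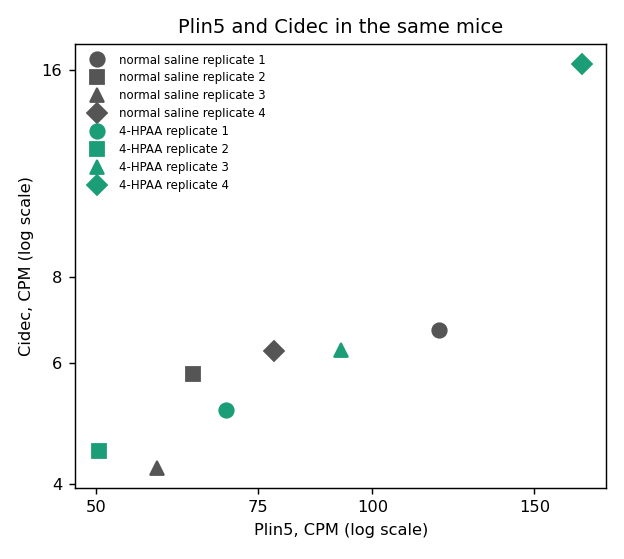
Cidec against Plin5, both in CPM on log scales, with 1 marker per library and colour for the group. The libraries of both groups lie along 1 rising band from HP2 and NS3 at the lower end to NS1 and HP4 at the upper end.

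Next in order came Plin4 with Pnpla2, with r = 0.84 (exact p = 0.0086, adjusted p = 0.129) and rho = 0.88 (exact p = 0.0072, adjusted p = 0.161), and r = 0.58 without 2 libraries. Plin4 with Plin5 reached r = 0.80 (exact p = 0.0158, adjusted p = 0.148) and rho = 0.83 (exact p = 0.0154, adjusted p = 0.173), but r was 0.34 without the 2 libraries farthest from the median of Plin4. Leaving out the extremes also narrows the range, so that r without them cannot tell how far the relation rested on those libraries. Within normal saline r of this pair was 0.54 and within 4-HPAA it was 0.99. The r of Plin3 with the other members ran from -0.64 against Abhd5 to 0.71 against Cideb. When deviations from the group means were used, r of Plin5 and Cidec was 0.91 and 0 of 45 pairs passed after adjustment (adjusted exact p = 0.0781 for this pair).

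The genes most like Plin2, the member of the highest level per length, were picked by Pearson's r over the 8 libraries among genes with a mean of at least 1 CPM. They were Grhpr (r = 0.97), which clears glyoxylate, Acaa1a (0.97), the thiolase of peroxisomal β-oxidation, Dhrs4 (0.97), a peroxisomal reductase, Creb3l3 (0.96), a liver transcription factor of lipid metabolism, and Nol3 (0.96). Acaa1a ran from 189 CPM in HP2 to 247 CPM in HP4, the same ends as Plin2. The genes most like Cidec, the member of the largest spread, were 2310039H08Rik (r = 0.98), Cgref1 (0.98), Psmd9 (0.98), a chaperone of proteasome assembly, Ywhae (0.98), a 14-3-3 protein, and Hras (0.97), a small GTPase. Cgref1 measured 6.02 CPM in HP4 and 1.48 to 2.36 CPM in the other 7 libraries. These genes were selected as the highest of many correlations, so that r describes them and tests nothing.

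Cidec and Plin5 each had transcripts that begin at separate first exons, and these were spread over the mice by different amounts. The RefSeq promoters of the 4 starts are shown so that the sequence before each measured transcript can be compared (GRCm38.p6, minus strand, each 5′ to 3′ from 250 bases before the start to 50 after it). The Plin5 windows are chr17:56117499-56117798 for the upstream start and chr17:56117249-56117548 for the downstream start, and the Cidec windows are chr6:113435711-113436010 and chr6:113434715-113435014. Capitals mark AGGTCA on either strand, the letters CCAAT or the reverse ATTGG and, in the downstream Cidec window, the annotated start codon ATG.
Plin5 upstream: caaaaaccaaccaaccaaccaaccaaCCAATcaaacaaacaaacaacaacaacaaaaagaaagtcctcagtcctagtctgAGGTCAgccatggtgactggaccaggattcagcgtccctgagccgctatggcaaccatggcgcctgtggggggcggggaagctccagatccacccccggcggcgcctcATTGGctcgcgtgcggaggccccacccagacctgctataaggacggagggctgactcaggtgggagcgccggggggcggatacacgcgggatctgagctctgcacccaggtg
Plin5 downstream: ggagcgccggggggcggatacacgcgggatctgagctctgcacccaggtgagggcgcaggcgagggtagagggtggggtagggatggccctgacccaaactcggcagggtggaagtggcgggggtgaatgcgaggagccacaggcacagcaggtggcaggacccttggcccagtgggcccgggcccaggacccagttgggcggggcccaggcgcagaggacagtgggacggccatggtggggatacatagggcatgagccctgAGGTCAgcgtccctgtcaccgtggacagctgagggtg
Cidec upstream: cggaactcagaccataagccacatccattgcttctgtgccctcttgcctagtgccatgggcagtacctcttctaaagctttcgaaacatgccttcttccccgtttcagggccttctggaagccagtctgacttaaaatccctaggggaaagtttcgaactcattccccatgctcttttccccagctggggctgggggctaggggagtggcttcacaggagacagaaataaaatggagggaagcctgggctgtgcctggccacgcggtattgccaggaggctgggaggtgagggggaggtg
Cidec downstream: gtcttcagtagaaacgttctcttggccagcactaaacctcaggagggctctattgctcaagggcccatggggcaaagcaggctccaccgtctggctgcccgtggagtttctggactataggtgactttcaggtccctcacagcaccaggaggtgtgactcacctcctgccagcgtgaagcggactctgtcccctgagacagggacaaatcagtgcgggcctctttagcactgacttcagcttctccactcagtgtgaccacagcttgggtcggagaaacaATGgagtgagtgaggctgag
Upstream Plin5 held AGGTCA 170 bases before the start and CCAAT letters 224 and 62 bases before it, and downstream Plin5 held AGGTCA 13 bases after the start. The upstream Plin5 start of RefSeq, at position 56117548, differs from the first base of Plin5-201 in GENCODE, at 56117596, and the last 50 bases of its window are the first 50 of the downstream one. Neither Cidec window held any of the 6 motifs searched, among them also the TATA box letters TATAAA, which 13.6% of all promoters held. The ATG of the downstream Cidec transcript begins 30 bases after its first base.

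Plin5-201, from the upstream first exon, measured 45.5, 30.3, 30.2 and 35.1 CPM with normal saline and 37.6, 25.7, 40.3 and 58.7 CPM with 4-HPAA. Plin5-202, from the downstream one, measured 73.0, 33.6, 27.8 and 43.0 CPM with normal saline and 31.4, 25.4, 52.8 and 112 CPM with 4-HPAA. The highest library was 2.28 times the lowest for Plin5-201 and 4.43 times for Plin5-202, although both share the same start codon, at position 56117126. The share of Plin5-202 in the gene went from 45.5% in HP1 to 65.7% in HP4, and was above 60% only in NS1 and HP4, the mice with the most Plin5. Its group means were 54.3% ± 5.69 and 54.4% ± 8.82 (SD, n = 4 each), with an exact permutation p of 1.

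Cidec-202, from the upstream first exon, measured 4.41, 3.09, 2.06 and 3.47 CPM with normal saline and 2.36, 1.76, 3.58 and 10.8 CPM with 4-HPAA. Cidec-203, whose own first exon holds its own start codon, measured 2.16, 2.34, 1.96 and 2.61 CPM with normal saline and 2.54, 2.53, 2.67 and 5.24 CPM with 4-HPAA. The highest library was 6.15 times the lowest for Cidec-202 and 2.67 times for Cidec-203. The share of Cidec-202 was 55.8% ± 7.11 with normal saline and 51.8% ± 11.6 with 4-HPAA, lowest in HP2 at 38.9% and highest in NS1 at 65.7% and HP4 at 65.3% (exact permutation p = 0.600 between the groups). Few sequences were particular to Cidec-202 or to Cidec-203. Of their 31-base words, the default length kallisto indexes, 40 and 35 occurred in no other Cidec transcript. For Plin5-201 and Plin5-202 the number was 99 each. Cidec-202 held 1677 words in all and Cidec-203 held 755. Many words of Cidec-202 were therefore absent from Cidec-203, though shared with other Cidec transcripts.

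**Figure D5:**
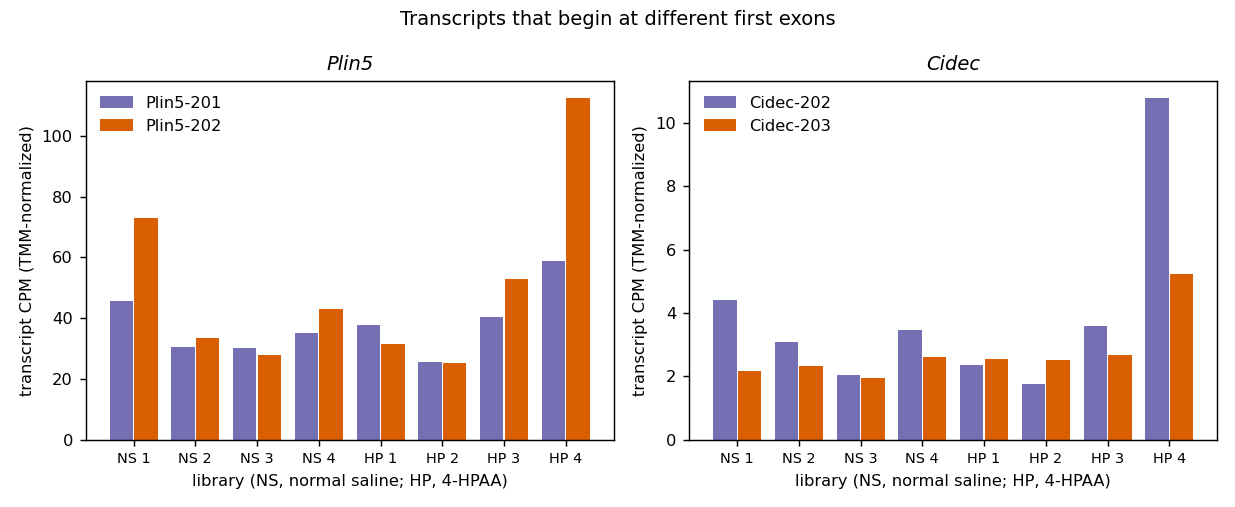
Level in CPM (y axis, from 0) of the transcripts of Plin5 and Cidec that begin at different first exons, in each of the 8 libraries (NS, normal saline; HP, 4-HPAA). Plin5-202 and Cidec-202 stand above their partner transcripts most in NS1 and HP4.

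Over all members, 23 of 38 transcripts reached the minimum of 10 counts per library and entered the test, with log2 fold changes above 0 for 15 and below 0 for 8, where 50.6% of all transcripts were above 0 and 49.4% below. By edgeR over 25977 transcripts 0 of the 23 passed, and 0% of all transcripts did, while DESeq2 passed 19 transcripts, of which 0 were of members. The groups overlapped for 23 of 23, against 2.1% of all transcripts whose groups did not. At an unadjusted p under 0.05 there were 2 member transcripts of 23, against 3.85% of all transcripts, and the number of members was 0 without NS2 or without HP2, 1 without NS4, HP3 or HP4 or with the replicate block, and 3 without HP1. Both were lower with 4-HPAA and both were poorly told apart from other transcripts of their gene. Plin4-202 had a log2 fold change of -0.82 ± 0.33 (edgeR, unadjusted p = 0.0313, adjusted p = 1.00), and its share of Plin4 counts was 71.4%, 97.7%, 76.6% and 98.9% with normal saline and 79.5%, 44.5%, 44.2% and 44.7% with 4-HPAA. The groups overlapped through HP1, and the difference of means of -32.9 points had an exact permutation p of 0.0857, or 0.600 adjusted over the 7 members with several transcripts. Of its 4786 31-base words only 1 was absent from Plin4-201, and Plin4-201 had 0 of its own, so that the deposited split between these transcripts rested on almost no sequence. Pnpla2-204, at 0.611 to 1.10 CPM with normal saline and 0.338 to 0.695 CPM with 4-HPAA, had a log2 fold change of -0.76 ± 0.29 (edgeR, unadjusted p = 0.0253, adjusted p = 1.00). It had 28 words of its own, and Pnpla2-201, which the deposited counts gave 70.7% and 69.2% of the gene and GENCODE labels as a target of nonsense-mediated decay, had 0.

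The wider pathways around the droplet gave no call either, each with 0 genes passing by edgeR. Of 22 other genes of droplet formation, coat and lipolysis, 19 were tested, 14 above 0 and 5 below, with a median log2 fold change of 0.03, or 9 and 10 without HP4. Fitm2 and Fitm1, which help droplets bud from the endoplasmic reticulum, had the largest values of that list, 0.20 ± 0.11 and -0.17 ± 0.22. Plin1 and Cidea, the fat cell relatives of the members, stood at most at 0.324 and 0.069 CPM and were under the filter, as was the lipase relative Pnpla3.

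PPARα is the fatty acid sensor known to induce several of the members in liver. Of 15 of its targets, 11 were above 0 and 4 below, with a median of 0.07, and without HP4 the split was 8 and 7 with a median of 0.01. Fgf21, the hepatokine of fasting, measured 2.92, 1.03, 0.590 and 1.44 CPM with normal saline and 0.628, 0.400, 1.68 and 5.95 CPM with 4-HPAA. NS1 and HP4 were its highest libraries and HP2 its lowest, as for Plin5, and its log2 fold change of 0.52 ± 0.77 was -0.72 without HP4. Fgf21 was named for the size of this log2 fold change, and its order of libraries was not shared by every target of the list. Cyp4a14, a fatty acid ω-hydroxylase, had the next largest value of that list, -0.22 ± 0.32, or 0.08 without NS1.

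Of the 9 tested of 11 targets of hypoxia-inducible factor, 3 were above 0 and 6 below, with a median of -0.01. By edgeR 2 of the 9 had an unadjusted p under 0.05, against 1.75% of all genes. The split was 5 and 4 without NS1, NS4, HP1 or HP2. The number with an unadjusted p under 0.05 was 0 without HP1. It was 1 without NS2, NS3 or HP4, with the replicate block and with limma-voom. Slc2a1, the glucose transporter GLUT1, measured 11.96, 9.67, 10.7 and 13.6 CPM with normal saline and 15.9, 14.6, 13.01 and 14.0 CPM with 4-HPAA (edgeR, log2 fold change 0.32 ± 0.12, unadjusted p = 0.0202, adjusted p = 1.00). Ddit4, an inhibitor of mTORC1 induced by stress, measured 90.8, 24.4, 22.8 and 29.4 CPM and 16.5, 26.9, 23.2 and 13.7 CPM (log2 fold change -1.06 ± 0.44, edgeR unadjusted p = 0.0370, adjusted p = 1.00). Its value rested on NS1, without which it was -0.34. Adm, the vasodilator adrenomedullin, had a log2 fold change of -0.33 ± 0.27, or -0.02 without NS1.

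Of 9 genes of insulin and carbohydrate driven lipogenesis, 5 were above 0 and 4 below, with a median of 0.0057, while with scaling by total counts the split was 4 and 5 and without HP4 it was 1 and 8. Elovl6, a fatty acid elongase, measured 167, 155, 116 and 187 CPM with normal saline and 104, 202, 142 and 297 CPM with 4-HPAA. HP4 was its highest library and HP1 its lowest, and its log2 fold change of 0.25 ± 0.28 was -0.06 without HP4. Pparg, a nuclear receptor that drives fat storage, had a log2 fold change of -0.27 ± 0.18. Neither passed the test (edgeR, adjusted p = 1.00 for both).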

How the data were processed

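Liver mRNA of 8 mice was sequenced from directional libraries. The authors pseudo-aligned the reads with kallisto under its standard parameters and deposited estimated counts per transcript for each mouse, without normalization or pooling. The submitters' processing notes also name FastQC 0.11.9, DESeq2, edgeR and the build GRCm38.p6. Transcript identifiers were matched to GENCODE M21 (GRCm38), which placed 116728 of 119414 transcripts in 35975 genes. The other 2686 held 0.703% to 1.06% of the counts of a library and were left out of the gene sums. Gene sums were rounded to whole numbers. Estimates share reads among similar transcripts, so that gene sums are firmer than transcript values.

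Features reaching 10 counts in each of the libraries entered a fit by edgeR 4.0.16 (TMM, quasi-likelihood F test, Benjamini-Hochberg adjustment over all features tested) in R 4.3.3. Nothing in the labels gives a processing batch, and p-values measure the spread between 4 mice per group. TPM used annotated lengths. Correlations used log2 CPM with a prior count of 2. Shares and ratios were tested by exact permutation (SciPy 1.17.1). Standard errors and 95% intervals were derived from the log2 fold change and the F statistic of the edgeR fit, and are approximate. Other settings tried were each library left out, the replicate number as a block, other filters, scaling by totals or by RLE, limma-voom (limma 3.58.1) and DESeq2 1.42.0. The direction counts and named list genes under these settings, and r of Plin5 and Cidec by library left out, were added after seeing the data.

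Promoters are RefSeq windows of 250 bases before and 50 after a start, with all 10 members matched by symbol. The members and gene lists were chosen with earlier results of these data known. Named besides the members are list genes with an unadjusted p under 0.05, the 2 largest log2 fold changes of each pathway list, the 5 genes most correlated with Plin2 and with Cidec, and Ddx3y. One gene of the lipogenesis list is not reported here and was left out of its counts. Marker and relative genes (Lep, Adipoq, Fabp4, Adrb3, Plin1, Cidea, Pnpla3) were named after their values were seen. The other marker lists summed, with normal saline and then 4-HPAA, to 0.412 to 6.76 and 0.489 to 0.938 CPM for skeletal muscle, 46.4 to 85.2 and 53.9 to 97.6 CPM for stellate cells, 73.6 to 246 and 65.8 to 197 CPM for Kupffer cells, 0.549 to 0.962 and 0.567 to 1.07 CPM for pancreatic acinar cells, and 3.57 to 6.99 and 4.17 to 7.69 CPM for cholangiocytes.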

Additional observations from a re-analysis of the deposited data

Results flagged for a closer look

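Of 104 groups of 4 libraries examined (members, their shares, ratios and transcripts, and the named list genes), 6 held a library whose gap to its nearest neighbour took most of the range of the group. Chance alone gives about 1 in 20 (5%) of groups that are independent and not chosen by their values. These groups were not of that kind. Most list genes were named for their differences, and genes share reads with their transcripts, so 6 of 104 cannot be set against that rate. Cidec in HP4 was 16.3 CPM, against 4.47 to 6.28 CPM in the other 4-HPAA libraries, and its transcript Cidec-203 in HP4 was 5.24 CPM, against 2.53 to 2.67 CPM. The share of Plin4-202 in HP1 was 79.5%, against 44.2% to 44.7% in the other 4-HPAA libraries, for a pair of transcripts that differ by 1 word of 31 bases. The other 3 were in NS1: Cyp4a14 at 919 CPM, against 456 to 532 CPM, Ddit4 at 90.8 CPM, against 22.8 to 29.4 CPM, and Adm at 2.31 CPM, against 1.115 to 1.23 CPM in the other normal saline libraries. The cause of these values was not tested.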

How the results depend on the processing

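No member gene or transcript passed in any of the alternatives run. Genes passing rose from 0 to 2 and transcripts from 0 to 19 with DESeq2, and with 1 library left out both ranged from 0 to 1 (1 without HP1), with 0 member genes and 0 member transcripts in each. The log2 fold changes with 1 library left out ranged -0.011 to 0.16 for Plin2, -0.086 to 0.10 for Plin3, -0.47 to 0.076 for Plin4, -0.17 to 0.51 for Plin5, -0.087 to 0.022 for Cideb, -0.12 to 0.69 for Cidec, -0.048 to 0.44 for G0s2, -0.084 to 0.080 for Pnpla2, -0.029 to 0.047 for Abhd5, -0.25 to 0.16 for Hilpda, 0.15 to 0.28 for Fitm2, -0.31 to -0.031 for Fitm1, -0.72 to 1.08 for Fgf21, -0.41 to 0.080 for Cyp4a14, 0.25 to 0.41 for Slc2a1, -1.26 to -0.34 for Ddit4, -0.44 to -0.019 for Adm, -0.39 to -0.14 for Pparg, -0.065 to 0.46 for Elovl6, so that each member changed sign with some library left out. Of the others, Pnpla2 turned positive with DESeq2 (0.00092), limma-voom (0.0036), RLE (0.00094), the filter of 10 summed counts (0.0039), no filter (0.0038) and the replicate block (0.0029), Abhd5 with DESeq2 (0.0016), RLE (0.0016), the filter of 10 summed counts (0.0040) and no filter (0.0039), and Fgf21 turned negative with limma-voom (-0.0099). Replicate numbers were not taken as pairs, since nothing in the labels says that they mark shared mice or days. Same-number correlations of deviations were 0.04, 0.17, 0.27 and 0.48, and 1 of the 4 was under the cut of 0.1 used here. Those of different numbers ran from -0.48 to 0.47, and NS3 matched HP2 best, at 0.47. With the replicate block 0 genes passed by edgeR, and the smallest adjusted p was 0.118. At an unadjusted p under 0.05 the block gave 336 genes, against 225 without it. Differences of shares, in points, ranged -0.32 to 0.28 for Plin2, -41.70 to -28.69 for Plin4, -3.65 to 3.07 for Plin5, -0.24 to -0.10 for Cideb, -8.50 to 0.29 for Cidec, -3.35 to -0.010 for Pnpla2, -0.080 to 4.69 for Abhd5 with 1 library left out, with 0 to 1 share at p under 0.05 (Plin4 without HP1), and that of Plin2 was 0.15 per length. Log2 ratios to Pnpla2 ranged -0.010 to 0.37 for G0s2, -0.27 to 0.11 for Hilpda, -0.11 to 0.066 for Abhd5, with 0 passing, and that of Abhd5 was 0.00011 as a linear ratio. Pairs of members passing ranged from 0 (without NS1, NS4, HP3 or HP4) to 3 (without NS3), with 2 without NS2, and were 0 with deviations from the group means. The cause of these shifts was not tested. At these depths counting error was 14.3% of the level for Hilpda, against a coefficient of variation over the libraries of 24.4%, and 4.02% against 5.10% for Abhd5. For Cidec it was 7.004% against 56.7%.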
